A study of Mus musculus with 2 samples.

Results

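The distal spots were 33 spots of the Vehicle section of a mouse kidney, selected on the share of their RNA that came from Slc12a3 and Pvalb, 2 marker genes of the distal convoluted tubule. Both sections of the series come from C57BL/6 mice whose ureter had been tied off on 1 side (unilateral ureteral obstruction) and whose obstructed kidney was taken 7 days after surgery. The Vehicle mouse received vehicle, and the other mouse received SH045, a compound that the series title connects with TRPC6 inhibition. Each section is from 1 mouse, no section of an unobstructed kidney was analysed here, and age, sex and dosing were not given in the sources used here. RNA was captured on a 10x Genomics Visium slide, a grid of barcoded spots under a frozen section of 10 µm, and counted as UMIs, that is, distinct captured molecules.

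Each spot covers a patch of tissue with more than 1 cell and often more than 1 cell type, so the distal spots are regions rich in distal RNA and not isolated tubule cells. More distal cells and more RNA per distal cell cannot be told apart in them. Of the 676 spots of the Vehicle matrix, 321 were kept, with at least 1000 UMIs and under 10% of their UMIs from mitochondrially encoded genes. The score of a spot was its summed Slc12a3 and Pvalb UMIs as a percentage of all its UMIs, and the spots at or above the 90th percentile were taken as distal. The threshold was 0.366%. The distal spot nearest to it lay at 0.366% and the highest of the 288 remaining spots at 0.354%. Scores of the distal spots ran from 0.366% over a median of 0.442% to 0.759%. The whole series holds 1466 spots.

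The distal convoluted tubule lies between the thick ascending limb and the connecting tubule. It reabsorbs sodium chloride through the thiazide-sensitive cotransporter NCC, the product of Slc12a3, under the control of the WNK kinases, and the basolateral sodium pump drives that uptake. Its early portion expresses parvalbumin (Pvalb), a calcium-binding protein, and takes up magnesium through the TRPM6 channel, whereas its late portion shares the calcium transport genes of the connecting tubule.

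**Figure D1:**
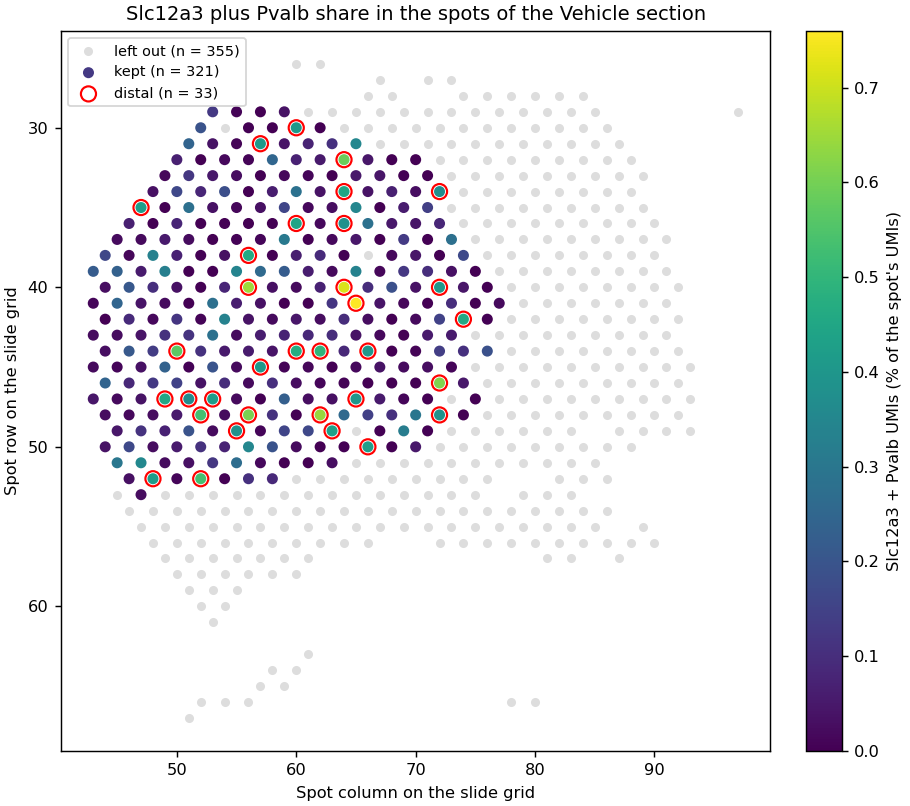
Spots of the Vehicle section at their row and column on the slide grid, coloured by the Slc12a3 plus Pvalb share of the spot's UMIs in percent, with the 355 left-out spots in grey and the 33 distal spots ringed. The kept spots form 1 connected area at the left of the section, and the distal spots are scattered through it, 21 of them with no adjacent distal spot.

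Slc12a3 and Pvalb chose the spots, so their levels are a description. Slc12a3 lay at 1920 CPM (UMIs of the gene per 1000000 UMIs, here of 1 spot) in the lowest distal spot, 3627 CPM at the median and 6835 CPM in the highest. The remaining spots ran from 0 CPM over a median of 273 CPM to 3484 CPM. The ranges overlapped, and 25 of the 288 remaining spots lay above the lowest distal spot. Pvalb ran from 0 CPM over a median of 1045 CPM to 2138 CPM in the distal spots, of which 29 had a Pvalb UMI and 4 had none. In the remaining spots its median was 0 CPM and its highest value 1820 CPM. The distal spots held 19.99% of the Slc12a3 UMIs of the matrix and 26.3% of its Pvalb UMIs. The kept remaining spots held 35.1% and 37.8%, so most of the measured transcripts of both genes came from outside the 33 spots.

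Depth was modest. The distal spots had 1536, 4478 and 12378 UMIs at the lowest, median and highest, and 171483 in all, against a median of 6042.5 UMIs and a total of 2163153 UMIs in the remaining spots. A single UMI was therefore worth 5.86 CPM over the summed distal spots and 0.463 CPM over the summed remaining spots. The mitochondrial share had a median of 3.46% in distal and 2.63% in remaining spots. Below, levels are CPM of counts summed over the spots, with both defining genes left out, and a fold is the distal level over the remaining level. Its 95% interval (exact, conditional binomial) covers counting error only. With 1 section there is no test, and a gene is called higher or lower where the fold passes 1.5 in either direction.

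Among 3020 genes measured at 50 CPM or more over all kept spots, 294 (9.74%) were higher and 524 (17.4%) were lower in the distal spots, with a median fold of 0.985. Higher genes thus made up 35.9% of the calls. Calls use the fold alone, so they include genes that pass the limit through counting error, and the share of these is not given here. With every spot thinned to 1000 UMIs, 635 genes were called higher and 931 lower. Under TMM scaling, which estimates a factor of 1.12 between the spot sets, 160 genes were higher and 747 lower, and the higher share was 17.6%. Of the 294 higher genes 203 lay above 1 in each of the 3 position blocks (of 4 into which the kept area was cut) that held at least 5 distal spots, and 398 of the 524 lower genes lay below 1 in each. The genes were called on counts that include these blocks, so part of this agreement is built in. The share over all measured genes was not computed.

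The distal identity of the spots was checked on genes that the score did not use. All 5 measured genes of a list of distal convoluted tubule markers were higher, with a median fold of 2.66. Here and below, a list's count and median are over its measured genes and its sum is over all its listed genes but the defining ones. The shares to set beside each list's counts are those over all measured genes, 9.74% higher and 17.4% lower. The sum was 3181 CPM against 1200 CPM, a fold of 2.65 (2.41 to 2.91). In single spots this sum ran from 1121 CPM over a median of 2871 CPM to 6335 CPM in the distal spots, and from 0 over 1023 to 4138 CPM in the remaining spots. The ranges overlapped, but the distal median lay well above the remaining one. Slc16a7, the monocarboxylate transporter MCT2, had the highest fold of these 5 genes at 3.45 (2.46 to 4.78). Tmem52b, a membrane protein gene, had a fold of 2.23 (1.81 to 2.72). The other 6 markers were under 50 CPM over all kept spots and rest on few UMIs. Trpm6, the magnesium channel, had 22 UMIs in 16 distal spots, 129 CPM against 20.8 CPM, a fold of 6.19 (3.54 to 10.5). The transcription factor genes Tfap2b and Sall3 had folds of 5.37 (2.66 to 10.3) and 5.43 (1.71 to 15.0).

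Of the 12 measured genes of sodium chloride transport and the WNK pathway, 6 were higher, 1 was lower and 5 lay in between. Their median fold was 1.95, and the summed fold was 2.26 (2.11 to 2.42), or 1.85 (1.70 to 2.001) without Ppp1r1a. The kinase Wnk4 lay at 0, 616 and 1282 CPM (lowest, median, highest) in distal spots and at 0, 213 and 1641 CPM in remaining spots. A total of 30 distal spots lay above the remaining median, although the single highest Wnk4 spot was a remaining one. Summed, Wnk4 was at 586 CPM against 239.6 CPM, a fold of 2.45 (1.95 to 3.03). Wnk1, whose kidney-specific isoform is typical of this segment, had a fold of 2.48 (1.97 to 3.09). Isoforms cannot be separated in these counts. Klhl3, the adaptor through which WNK kinases are degraded, had a fold of 2.85 (1.86 to 4.23), whereas Cul3, the ubiquitin ligase scaffold that works with it in all cells, was at 0.97 (0.49 to 1.75). Stk39, which encodes the kinase SPAK that phosphorylates NCC, was below the filter with 19 distal UMIs and had a fold of 3.21 (1.83 to 5.36).

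Ppp1r1a, which encodes protein phosphatase inhibitor 1, showed one of the clearest separations. It lay at 0, 1532 and 4207 CPM in distal spots and at 0, 326 and 2811 CPM in remaining spots. All but 1 of the distal spots, 32 of 33, exceeded the remaining median. Its fold was 4.42 (3.87 to 5.03), and between 2.56 and 5.91 in the position blocks. The lone lower gene of the pathway was Nedd4l, a ubiquitin ligase acting on sodium transporters, at 0.64 (0.23 to 1.44) from 6 distal UMIs.

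**Figure D2:**
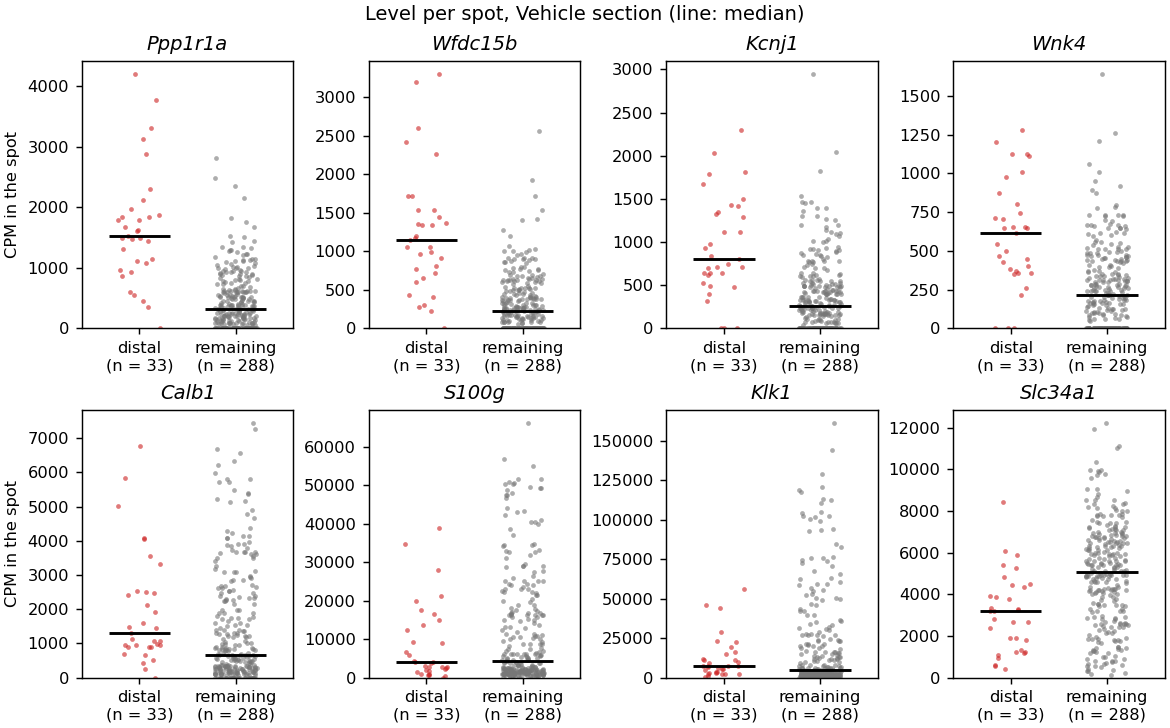
CPM of 8 genes in each kept spot of the Vehicle section, with the 33 distal spots in red, the 288 remaining spots in grey and a line at each median. Ppp1r1a, Wfdc15b, Kcnj1 and Wnk4 sit higher in distal spots, S100g and Klk1 overlap almost fully, and Slc34a1 sits lower.

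Channels that recycle ions across the tubule membranes followed in part. Kcnj1, the apical potassium channel ROMK, lay at 0, 806 and 2296 CPM in distal and at 0, 264 and 2950 CPM in remaining spots. Its distal median was higher, with overlapping ranges. Its fold was 2.89 (2.42 to 3.43). Kcnj10, the basolateral potassium channel subunit, had a fold of 2.58 (1.55 to 4.11), with 0.61 in 1 of the position blocks, while its partner Kcnj16 was at 1.29 (1.05 to 1.58). Bsnd, which encodes the chloride channel subunit barttin, was at 1.45 (0.84 to 2.37), short of the 1.5-fold limit.

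A beta subunit and the gamma subunit of the sodium pump were higher. Fxyd2, the gamma subunit, lay at 4819, 11364 and 17416 CPM in distal spots and at 2049.7, 7498 and 17993 CPM in remaining spots. The ranges overlapped almost fully, with 28 of 33 distal spots above the remaining median. The fold of Fxyd2 was 1.55 (1.49 to 1.63), and that of the beta subunit gene Atp1b1 was 1.56 (1.42 to 1.70). Under TMM scaling Atp1b1 and Fxyd2 were at 1.39 each and no longer passed the limit. Another beta subunit gene, Atp1b3, was at 1.09 (0.51 to 2.08). Fxyd4, the pump regulator of the collecting duct, was lower at 0.25 (0.08 to 0.59), with 5 distal UMIs.

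The lists of magnesium and calcium handling had few measured genes, and over all measured genes 9.74% were higher. The magnesium list had 2 of 5 measured genes higher, Egf and Fxyd2, and a summed fold of 1.58 (1.52 to 1.64). This sum is dominated by Fxyd2, the pump subunit given above, and was 1.64 (1.53 to 1.76) without it. Of the list's 3080 distal UMIs Fxyd2 held 2141, Umod 488 and Trpm6 22. Egf, whose product regulates magnesium uptake, lay at 0, 806 and 2981 CPM in distal and at 0, 169 and 3063 CPM in remaining spots. It had UMIs in 28 distal spots, with a wide overlap at the top of both ranges and a fold of 2.66 (2.25 to 3.14). The calcium list had 1 of 6 measured genes higher, Kl, which encodes the FGF23 co-receptor klotho, at 1.51 (1.26 to 1.81), and 1.35 under TMM scaling. The list's summed fold was 0.90 (0.86 to 0.94), while the median over its genes was 1.02. The sum is dominated by S100g, and was 1.21 (1.12 to 1.31) without it. The direction depended on how spots were chosen, with 1.27 for a score from Slc12a3 alone and 0.68 for a score from Pvalb alone. It was 1.09 without position block 3, and 1.28 with no mitochondrial limit.

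Single calcium genes showed the same pattern of overlap. Calb1, the intracellular calcium carrier calbindin, lay at 0, 1308 and 6780 CPM in distal spots and at 0, 660 and 7446 CPM in remaining spots. Most distal spots, 28 of 33, exceeded the remaining median, and the fold was 1.40 (1.24 to 1.57), which reached 1.90 for a score from Slc12a3 alone. S100g, the calcium carrier calbindin-D9k, lay at 0, 4047 and 38829 CPM against 0, 4405 and 66267 CPM, so that its medians were close and its highest values were in remaining spots. Its fold was 0.81 (0.76 to 0.85), but 1.199 for a score from Slc12a3 alone. The sodium-calcium exchanger gene Slc8a1 was at 1.04 (0.75 to 1.41), the vitamin D receptor gene Vdr at 1.002 (0.72 to 1.36), and the parathyroid hormone receptor gene Pth1r at 0.90 (0.75 to 1.07). The calcium channel gene Trpv5 had 1 UMI in all distal spots and 27 in the remaining spots, a ratio of 0.47 (0.01 to 2.85).

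Genes of the next segments downstream were called in both directions, and over all measured genes 9.74% were higher and 17.4% lower. In the connecting tubule list 2 of 10 measured genes were higher, Tmem213 at 2.25 (1.87 to 2.70) and Wnk1, and 3 were lower, Kcne1, Scnn1g and Aqp2. The list's summed fold was 0.79 (0.76 to 0.81). Klk1, tissue kallikrein, lay at 482, 7214 and 56408 CPM in distal and at 0, 4516 and 161430 CPM in remaining spots. The distal median was the higher of the pair, whereas the summed level was lower, 12298 CPM against 18014 CPM, a fold of 0.68 (0.65 to 0.71). Without a mitochondrial limit the Klk1 fold was 1.52. Klk1 belongs to a cluster of near-identical genes, between which the counting may have split reads. Of the aldosterone-responsive genes, the sodium channel subunits Scnn1a and Scnn1b were at 1.19 (0.75 to 1.81) and 1.11 (0.78 to 1.55). The subunit gene Scnn1g was lower at 0.41 (0.16 to 0.87) from 7 distal UMIs, and Hsd11b2, which protects the mineralocorticoid receptor from glucocorticoids, was lower at 0.40 (0.26 to 0.59).

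**Figure D3:**
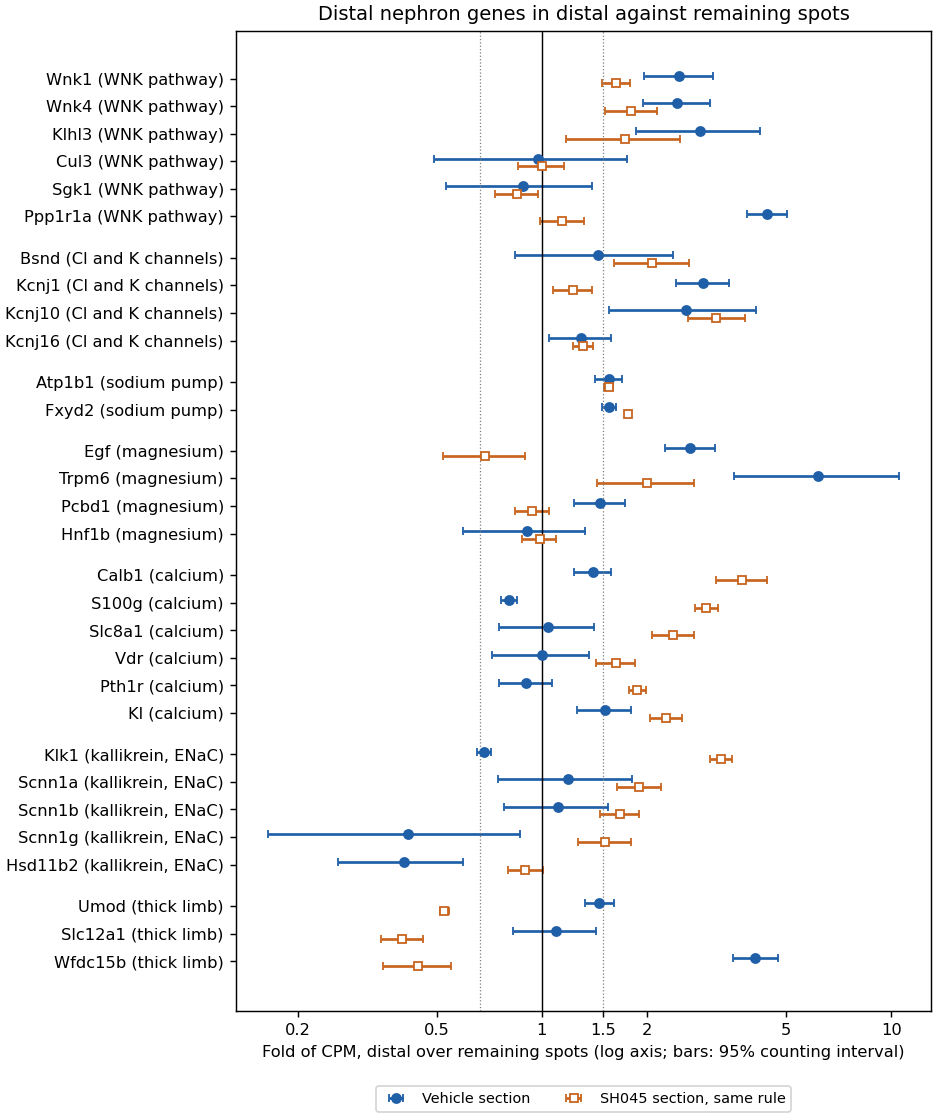
Fold of distal over remaining spots for genes of the distal nephron, on a log axis, in the Vehicle section (filled circles) and under the same rule in the SH045 section (open squares), with 95% counting intervals and dotted lines at 1.5-fold in either direction. In the Vehicle section Wnk1, Wnk4, Klhl3, Ppp1r1a, Kcnj1 and Egf lie above 1.5 while Calb1, S100g, Slc8a1, Vdr and Pth1r lie within 1.5-fold, and Wfdc15b lies on opposite sides of 1 in the sections.

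The spots also carried genes of the thick ascending limb, the segment just upstream. In that list 5 of 8 measured genes were higher and 1 lower, with a median fold of 2.42 and a summed fold of 2.13 (2.01 to 2.25). The higher ones were Ppp1r1a, Wfdc15b, Kcnj1, Egf and Sostdc1, of which Egf is also on the distal convoluted tubule list and Ppp1r1a and Kcnj1 on the sodium chloride list. Wfdc15b, a secreted protease inhibitor gene at chr2:164214454-164221663 (mm10), lay at 0, 1148 and 3302 CPM in distal spots and at 0, 223 and 2559 CPM in remaining spots. The groups overlapped, with 32 of 33 distal spots above the remaining median and a fold of 4.08 (3.51 to 4.73). The genes that best define the limb were closer to level. Slc12a1, its sodium-potassium-chloride cotransporter NKCC2, was at 1.10 (0.83 to 1.43) and Umod, uromodulin, at 1.46 (1.33 to 1.61), both short of the limit. Umod ranged from 0.91 to 2.05 over the blocks. The claudin gene Cldn10 was lower at 0.39 (0.21 to 0.67). Umod had UMIs in 29 of the 33 distal spots, and its part in the other folds was not tested.

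Other tubule spots of the same section were used to see which of these genes were higher in distal spots than in their neighbours along the nephron. They were the top 10% of kept spots by the share of Umod plus Slc12a1 (33 spots, 4 of them distal), and by the share of Calb1 plus S100g (33 spots, 2 of them distal). These shared spots were 12.1% and 6.06% of each set, and were left out of both sides. These sets and the genes shown for them were chosen after values had been seen, and each set is high in its own genes by construction. Against the thick limb spots, Trpm6 had a fold of 11.0 (3.67 to 44.6), from 19 distal and 4 limb UMIs, and Calb1 one of 5.003 (4.05 to 6.203). Wnk4 was at 3.90 (2.72 to 5.66), Ppp1r1a at 2.41 (1.996 to 2.90), Gpx6 at 2.58 (1.61 to 4.13), Ckb at 1.89 (1.35 to 2.62) and Wfdc15b at 1.73 (1.41 to 2.11), while Egf was lower at 0.68 (0.54 to 0.83). Apart from Egf, the distal spots thus exceeded the limb spots in the genes given here. Ppp1r1a, Gpx6, Ckb and Wfdc15b were among the 12 genes of highest fold over the remaining spots. The limb spots compared are part of the remaining spots, so part of this is built in. Other genes were lower than in the limb spots, such as Slc34a1 at 0.76 (0.68 to 0.85) and Fxyd4 at 0.19 (0.06 to 0.48).

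Against the Calb1 and S100g spots the order of genes was different. Wnk4 was at 1.07 (0.81 to 1.40) and Kcnj1 at 1.13 (0.91 to 1.40), so that these intervals include 1. Wfdc15b was at 9.40 (6.65 to 13.6), Gpx6 at 8.44 (4.11 to 19.5), Egf at 6.37 (4.53 to 9.14), Ckb at 4.23 (2.88 to 6.34) and Ppp1r1a at 4.14 (3.32 to 5.19). Trpm6 was at 2.45 (1.17 to 5.34). Of the genes given here for both contrasts, Ppp1r1a, Gpx6, Ckb, Wfdc15b and Trpm6 were higher at 1.5-fold against both sets. The Calb1 and S100g spots compared are also part of the remaining spots, so part of this is built in too.

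**Figure D4:**
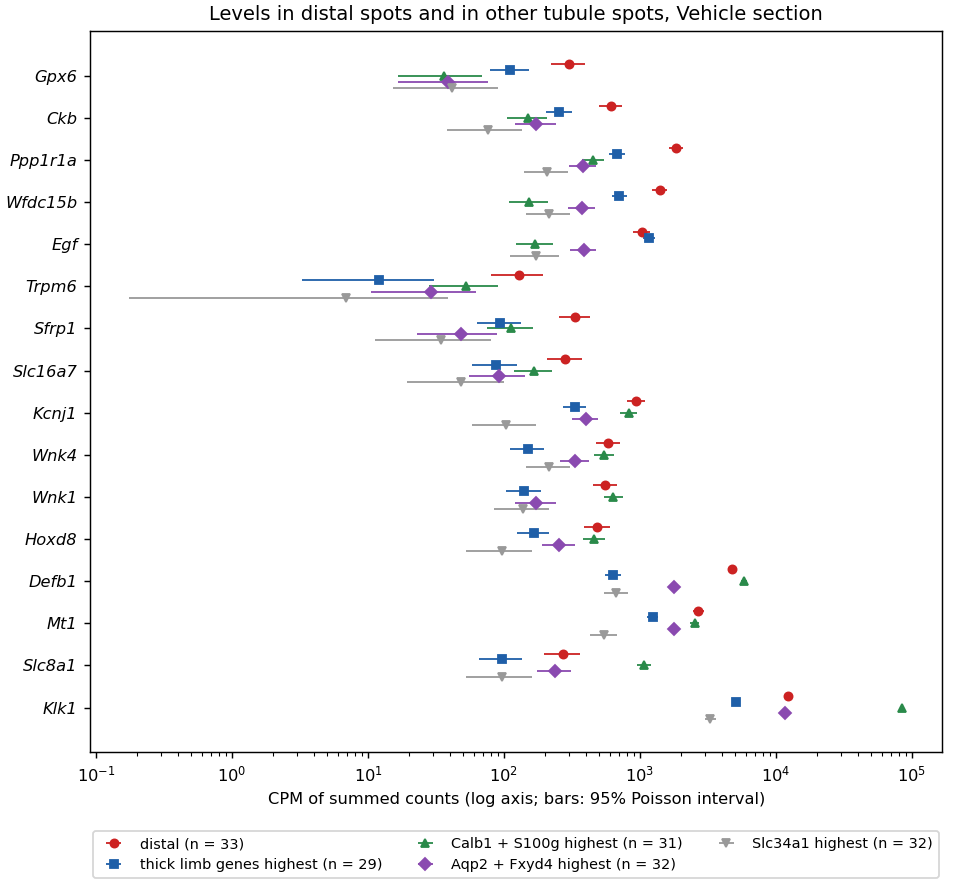
CPM of summed counts, on a log axis with 95% Poisson intervals, for 16 genes in the 33 distal spots and in the non-distal top 10% of spots by thick limb genes, Calb1 plus S100g, Aqp2 plus Fxyd4, and Slc34a1. Gpx6, Ckb, Ppp1r1a and Wfdc15b are highest in the distal spots. Wnk4, Wnk1 and Hoxd8 are close to their levels in the Calb1 plus S100g spots. Egf is at 1031 CPM in the distal spots and 1171 CPM in the thick limb spots. The distal spots here include the 4 shared with the thick limb set.

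The genes of highest fold reached beyond transport. Among genes at 50 CPM or more over all kept spots, with at least 10 distal UMIs and a fold above 1 in the 3 blocks, the 12 highest were Gpx6, Ckb, Ppp1r1a, Sfrp1, Wfdc15b, Hoxb5os, Slc16a7, Mt2, Ier3, Card19, Tmem72 and Kcnj1, with folds from 4.97 down to 2.89. Gpx6, a glutathione peroxidase gene at chr13:21295465-21319625 (mm10), had UMIs in 18 distal spots and lay at 0, 213 and 2033 CPM, against 0, 0 and 907 CPM in remaining spots. It was thus undetected in many distal spots and high in a few, with a fold of 4.97 (3.52 to 6.92). Ckb, the brain-type creatine kinase that buffers ATP, lay at 0, 404 and 2142 CPM against 0, 74.0 and 921 CPM, with UMIs in 29 distal spots and a fold of 4.53 (3.58 to 5.68). Sfrp1, a secreted inhibitor of Wnt signalling, was at 4.13 (3.00 to 5.59). Hoxb5os, an antisense RNA of a homeobox gene, was at 3.48 (2.52 to 4.74), and whether the counting separated it from transcripts of the other strand is not given in the sources used here. Ier3, an early-response gene, was at 3.17 (2.38 to 4.16). Defb1, which encodes an antimicrobial defensin of the distal nephron, and Hoxd8, a homeobox gene, were picked after their values were seen, at 2.88 (2.66 to 3.11) and 2.72 (2.12 to 3.46). Against the thick limb spots they were at 7.32 (6.27 to 8.59) and 2.75 (1.89 to 4.01). Against the Calb1 plus S100g spots Defb1 was at 0.81 (0.74 to 0.88), and Hoxd8 lay at 498 CPM against 461 CPM.

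All 26 listed nuclear genes of oxidative phosphorylation were measured, and 2 of them, Cox6c at 1.57 (1.47 to 1.67) and Atp5g1 at 1.58 (1.36 to 1.82), passed the limit, a share below the 9.74% over all measured genes. The median fold over the 26 genes was 1.32, against 0.985 over all measured genes, and their summed fold was 1.31 (1.29 to 1.34). Under TMM scaling the sum was at 1.175 (1.15 to 1.2003), and Cox6c at 1.40 no longer passed. Against 9.74% higher and 17.4% lower over all measured genes, 5 of 16 citrate cycle and ketone genes were higher and 1 was lower. They included Idh2, a mitochondrial isocitrate dehydrogenase gene, at 1.66 (1.43 to 1.91) and Oxct1, the enzyme gene that starts ketone body use, at 1.64 (1.46 to 1.85), which TMM scaling took to 1.48 and 1.47. In the glycolysis list, from which Aldoa was left out because its symbol is shared by several rows, 3 of 12 measured genes were higher, among them Pkm at 2.04 (1.73 to 2.39). The mitochondrial share of UMIs was also higher in the distal spots, as given above, and its part in these folds was not tested. The metallothionein genes Mt1 and Mt2, which bind zinc and copper, were at 2.34 (2.11 to 2.58) and 3.21 (2.35 to 4.32). Gpx1, the general cellular glutathione peroxidase gene, was lower at 0.61 (0.55 to 0.68), and the antioxidant list as a whole had 2 genes higher and 3 lower of 13.

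Genes of the proximal tubule, which reabsorbs most of the filtrate in the cortex, were mostly lower. Of 20 measured genes of its first segments 16 were lower and none was higher at 1.5-fold, with a median fold of 0.57 and a summed fold of 0.56 (0.55 to 0.58). The phosphate transporter gene Slc34a1 lay at 428, 3187 and 8435 CPM in distal and at 134, 5071 and 12232 CPM in remaining spots. It was present in every distal spot, only 5 of which exceeded the remaining median, and its fold was 0.61 (0.55 to 0.66). In the third proximal segment 4 of 5 genes were lower. The 12 genes of lowest fold were Insrr, Tm7sf3, Cbs, G6pc, Tmx1, Cks2, Slc6a13, Papss2, Fxyd4, Slc22a28, Susd2 and Dmgdh, at folds from 0.10 to 0.28. They rest on 1 to 9 distal UMIs each, so the order among them is not resolved. Insrr, a receptor gene of bicarbonate-secreting intercalated cells, had 1 UMI, a ratio of 0.10 (0.00247 to 0.557).

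Markers of other cells that a spot could hold were measured beside these folds. Principal cell genes were lower in 5 of 7 cases, with a summed fold of 0.61 (0.52 to 0.71), and intercalated cell genes in 7 of 13, with 0.77 (0.68 to 0.85). Over all measured genes 17.4% were lower and 9.74% higher. Podocyte genes summed to 346 CPM against 300.2 CPM, endothelial genes to 850 CPM against 712 CPM, with 2 of 5 measured genes higher (Kdr and Emcn, at 1.67 and 1.69), and fibroblast genes to 363 CPM against 342 CPM. Macrophage genes summed to 838 CPM against 746 CPM, with Mrc1 and Itgam at 0 in the distal spots, and 1 of 5 measured genes, Apoe, higher at 1.87 (1.34 to 2.57). The tubule injury list had a summed fold of 1.31 (1.19 to 1.43) with 1 of 6 measured genes, Cd24a, higher. Its defining members Havcr1 and Lcn2 had no UMI in the distal spots and 6 each in the remaining spots. The distal spots held 171483 UMIs in all and the remaining spots 2163153. A distal count of 0, here or for Mrc1 and Itgam, therefore does not show a lower level.

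**Figure D5:**
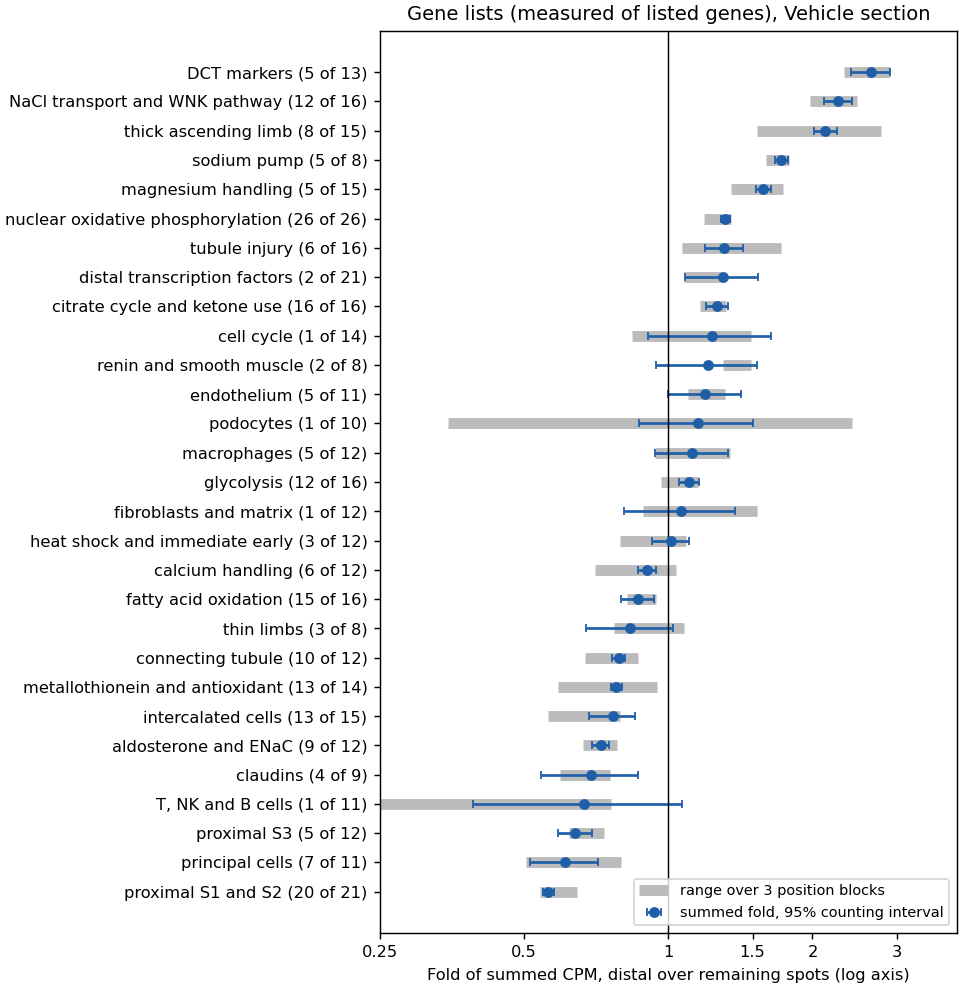
Fold of the summed CPM of each gene list in distal over remaining spots of the Vehicle section, on a log axis, with 95% counting intervals (points) and the range over the 3 position blocks with at least 5 distal spots (grey bars). Distal convoluted tubule markers lie highest at 2.65 and proximal tubule genes of the first segments lowest at 0.56.

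The distal spots differed among themselves along the Pvalb axis. The 4 spots without a Pvalb UMI had to pass the score on Slc12a3 alone, and had a summed Slc12a3 level of 4078 CPM against 3675 CPM in the 29 with one. Their Calb1 levels were 6780, 937, 2466 and 5835 CPM, and their Klk1 levels 46225, 9372, 15919 and 56408 CPM. The second of these spots was the lowest in both genes. Summed, S100g was at 24195 CPM in the 4 spots against 7151 CPM in the 29, and Klk1 at 34702 CPM against 10224 CPM. Wfdc15b was lower in the 4 spots, at 277 CPM (4 UMIs) against 1498 CPM, and so was Umod, at 622 CPM (9 UMIs) against 3066 CPM. Slc12a1 rested on 3 UMIs in the 4 spots. Egf had 1 UMI in the 4 spots. Wnk4 (553 against 589 CPM) and Kcnj1 (1037 against 928 CPM) rested on 8 and 15 UMIs in the 4 spots. Their folds, of the 29 spots over the 4, were 1.07 (0.52 to 2.54) and 0.90 (0.53 to 1.64). These intervals are too wide to call the levels alike or different.

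A split of the 33 spots at the median of their Pvalb to Slc12a3 ratio, 0.267 UMIs of Pvalb per UMI of Slc12a3, set groups of more even size against each other. This split was chosen after values had been seen, and it uses both defining genes, so it is a description. In the 17 spots at or above the median, relative to the 16 below, Slc12a1 was at 4.498 (2.12 to 11.0), Ckb at 1.97 (1.26 to 3.18), Umod at 1.75 (1.44 to 2.15) and Ppp1r1a at 1.65 (1.29 to 2.13). Calb1 was at 0.72 (0.57 to 0.91), S100g at 0.69 (0.62 to 0.77), Klk1 at 0.70 (0.65 to 0.77) and Spp1, osteopontin, at 0.56 (0.42 to 0.75). Kcnj1, at 1.25 (0.90 to 1.76), and Slc8a1, at 0.58 (0.31 to 1.08), had intervals that include 1.

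In position the distal spots were scattered. Of the 33 spots 12 had an adjacent distal spot, the largest group held 4 spots, and they formed 26 groups. Among the kept neighbours of distal spots 8.84% were distal, and among those of remaining spots 10.5%, close to the 10.3% of all kept spots. The distance to the edge of the kept area had a median of 6 grid steps in both sets, and the 4 position blocks held 4, 9, 10 and 10 distal spots. Ppp1r1a, which the score did not use, was at 385 CPM in the 131 remaining spots 1 step from a distal spot, 401 CPM in the 107 at 2 steps and 505 CPM in the 50 farther away. Its level in the remaining spots was thus not higher next to the distal spots.

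The spots left out for their mitochondrial share were examined with the same score, as a setting added after the data had been seen. There were 338, with 44.7% of all Slc12a3 UMIs, and their own top 10% held 34 spots above a threshold of 0.169%. The distal convoluted tubule list had a fold of 1.51 (1.30 to 1.74) in place of 2.65, Ppp1r1a 1.73 in place of 4.42 and Ckb 1.39 in place of 4.53. Of all 294 higher genes 67.3% lay above 1 there, against 52.5% of all measured genes, and of the 524 lower genes 58.4% lay below 1, against 47.6%. Of the 12 genes of highest fold 11 lay above 1 and 8 passed 1.5, and of the 12 lowest 9 lay below 1 and 1 passed the limit, while the proximal list was at 0.973 (0.950 to 0.995). The difference between the kept and the left-out spots was not tested.

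The same rule in the SH045 section gave 77 distal and 691 remaining spots at a far lower threshold of 0.0338%. Slc12a3 was at 747 CPM in those distal spots, against 3691 CPM in the Vehicle ones. Pvalb had 3 UMIs in the whole SH045 matrix, in 2 spots, so the score there rested on Slc12a3. Those spots had a median of 30620 UMIs. The values are set side by side, since 1 section per treatment allows no test and treatment, mouse and section cannot be told apart. Other cell markers also differed between the sections. In the remaining spots tubule injury genes summed to 30396 CPM in the SH045 section against 2303 CPM in the Vehicle section, fibroblast genes to 5332 CPM against 342 CPM, and macrophage genes to 6117 CPM against 746 CPM. Their part in the values that follow was not tested. In the SH045 section 54 of 3988 measured genes (1.35%) were higher and 150 (3.76%) lower. Its distal spots held 2444409 UMIs in all, against 171483 in the Vehicle distal spots. Counting error is therefore smaller there, and these shares cannot be set against the Vehicle shares.

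Some folds were alike in the sections and others were not. The distal marker list was at 2.58 in the SH045 section and at 2.65 in the Vehicle section, and Wnk4 was at 1.80 (1.51 to 2.14) and 2.45. The summed fold of calcium genes was 2.05 (1.98 to 2.12) in the SH045 section against 0.90, although their level in its distal spots was the lower one, at 1800 CPM against 12626 CPM. The fold of Calb1 was 3.74 (3.16 to 4.42) against 1.40, and that of Klk1 3.26 (3.03 to 3.50) against 0.68. The summed fold of thick limb genes was 0.57 (0.55 to 0.58) against 2.13. Ppp1r1a was at 1.14 (0.985 to 1.32) against 4.42, Ckb at 0.94 (0.87 to 1.02) against 4.53, and Tmem52b at 5.06 (4.66 to 5.49) against 2.23. With the Vehicle score taken from Slc12a3 alone, as it was in effect in the SH045 section, the Vehicle folds were 1.90 for Calb1, 1.02 for Klk1, 4.11 for Ppp1r1a and 3.90 for Ckb. Those of Calb1 and Klk1 lay between the values given for the sections, and those of Ppp1r1a and Ckb stayed near the Vehicle value. The part of the score, the threshold and the depth in the differences between the sections was not tested.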

How the data were processed

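Visium counts of 2 kidney sections were analysed, 1 per group, grouped by the treatment in the labels. The authors deposited UMI counts per gene and spot that are not normalized. Per the file headers they came from Space Ranger 2.0.1, and the genome build is mm10 per the submitters' processing notes. Aligner settings and the handling of strand were not stated in the labels or headers. Distal spots were chosen by score as described above, and every matrix spot was a candidate, since the Vehicle positions table flags 1210 spots as tissue, 570 of them in the matrix (all 321 kept spots are flagged). The 2 matrices share 335 spot barcodes, which belong to the slide design. The members, the 32 gene lists and the tests were chosen with earlier results of these data known.

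Counts were summed over spots, scaled to CPM and compared as folds with exact 95% intervals, checked on simulated data. Those intervals cover counting error only. Spots are not replicates, so no test was made. No doublet caller was run. Named genes were the 12 of highest fold (at least 10 distal UMIs) and 12 of lowest with 1 direction in 3 blocks, all measured members of 6 distal lists and the 3 most abundant of each other list, besides others given with a value for a list or a contrast; some members are not reported here. Mitochondrial, ribosomal, haemoglobin, immunoglobulin and unnamed transcripts were left out of the 24. Coordinates are from RefSeq, GRCm38.p6. Alternatives covered the score, spot filters, scaling, gene filter, thinning to 1000 UMIs per spot and leaving out position blocks. Software was numpy 2.4.6, scipy 1.17.1 and pandas 2.3.3.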

Additional observations from a re-analysis of the deposited data

Results flagged for a closer look

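Wfdc15b lay on opposite sides of the 1.5-fold limit in the sections, at 4.08 (3.51 to 4.73) in the Vehicle section and at 0.443 (0.352 to 0.551) in the SH045 section, 34.8 CPM against 78.6 CPM there. The difference between the sections was not tested.

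The Vehicle spots left out for their mitochondrial share held Slc12a3 at 715 CPM (678 to 753) and Pvalb at 121 CPM (106 to 137). In the kept remaining spots Slc12a3 was at 514 CPM and Pvalb at 117 CPM.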

How the results depend on the processing

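Of the 56 named genes that passed 1.5-fold, 41 kept their direction in all 21 alternative settings. Not all of these settings could reverse a gene. Of the 15 that turned once, 13 did so in the spots over the mitochondrial limit, where Card19 was at 0.775, Tmx1 at 1.04, Cks2 at 1.39, Slc6a13 at 1.19, Kcne1 at 1.30, Scnn1g at 1.25, Aqp2 at 1.05, Hsd11b2 at 1.09, Car2 at 1.05, Cyp4b1 at 1.02, Apoe at 0.689, Cldn10 at 1.08 and Gpx1 at 1.02. Nedd4l turned to 1.06 at the 95th percentile, and Slc22a28 to 1.01 when spots were thinned to 1000 UMIs. The setting with only spots flagged as tissue held the same 33 distal and 288 remaining spots. Median fold scaling, TMM scaling and totals without Klk1, Kap and Gpx3 change all folds by a common factor. That factor is too small to turn a gene that passed 1.5-fold. The genes of highest and lowest fold were picked for the same direction in 3 blocks, which favours them when a block is left out.

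Counts of genes moved with the filter, the fold limit and the depth. Higher and lower genes numbered 910 and 1193 at a 20 CPM filter, 3072 and 1891 with no filter, 635 and 931 after thinning, and 60 and 164 at 2-fold. There were 446 higher at the 95th percentile, 160 higher under TMM scaling and 330 lower with no mitochondrial limit. The spots over that limit alone gave 168 higher and 220 lower.

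The calcium fold of 0.90 was 1.15 at the 85th and 1.0 at the 95th percentile, 1.27 from Slc12a3 alone, 0.679 from Pvalb alone, 1.28 with no mitochondrial limit, 0.856 after thinning, 0.808 under TMM scaling and 0.768 in spots with a Pvalb UMI. The magnesium fold of 1.58 was 1.47 and 1.71 at those percentiles, 1.69 with no mitochondrial limit, 1.22 over that limit, 1.41 under TMM scaling, 1.64 in spots with a Pvalb UMI and 1.52 with totals without Klk1, Kap and Gpx3. The proximal fold of 0.56 was 0.415 at the 95th percentile, 0.5002 from Slc12a3 and 0.591 from Pvalb alone, 0.532 at 2000 UMIs, 0.627 with no mitochondrial limit, 0.973 over it, 0.650 after thinning, 0.502 under TMM scaling, 0.616 outside thick limb spots and 0.540 without those 3 abundant genes. Leaving out 1 position block gave 0.841 to 1.09 for calcium, 1.41 to 1.64 for magnesium and 0.536 to 0.597 for proximal genes. Without block 1 the calcium and proximal folds were 0.841 and 0.597, without block 2 the proximal fold was 0.542, and without block 3 the 3 folds were 1.09, 1.41 and 0.536. The settings on left-out spots, Pvalb UMIs, thick limb spots and abundant genes were chosen after seeing the data. The causes of these shifts were not tested.

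With 171483 UMIs over the distal spots, genes near 50 CPM rest on fewer than 10 UMIs. No paired analysis was possible because each group holds 1 section.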
